A study of Homo sapiens with 20 samples.

Results

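The genes described are the inhibitor of DNA binding (ID) proteins ID1, ID2, ID3 and ID4, the bone morphogenetic protein (BMP) ligands BMP4 and BMP7, and the BMP receptors BMPR1A and BMPR2. They were found as the probe sets whose only gene symbol in the platform annotation is one of these 8 names, and where a gene has several, the one of highest mean level leads. The rule gave 14 probe sets for 7 of the 8 genes, among 11963 genes tested. BMPR1A, a type I BMP receptor, was not analysed here. RNA came from SUM44, a human cell line grown from an invasive lobular breast cancer, and was read on Affymetrix human expression arrays.

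Before anything was added, all cells spent 3 days in charcoal-stripped serum, which is low in steroid hormones. The serum is given as 2% in the text for the series and as 10% in the text for the samples. There were 5 groups of 4 arrays, lettered A to D: 1 nM estradiol (E2) for 3 h, vehicle (0.01% ethanol) for 3 h, E2 for 24 h, vehicle for 24 h, and a baseline at 0 h. The 4 arrays titled E2 at 24 h carry the word baseline in their treatment field, and were grouped by title and description. All values come from 1 cell line in culture, with replicates described as biological in the text for the series.

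BMP ligands bind a complex of type I and type II serine/threonine kinase receptors, which phosphorylates SMAD1, SMAD5 and SMAD9. These join SMAD4 in the nucleus, and ID1, ID2 and ID3 are among the best known genes that the complex turns on. ID proteins have a helix-loop-helix but no DNA-binding region, so they pair with E proteins such as TCF3 and keep them off DNA. In mammary epithelium, ID proteins are known for roles in proliferation and differentiation.

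After 3 h of E2, ID1, ID2, ID3 and BMP4 were lower than in vehicle, and no member was higher. ID3 was 3.31-fold lower, ID2 2.83-fold, ID1 1.85-fold and BMP4 1.24-fold. After 24 h, ID2, ID3, BMP4 and BMPR2 were lower, and again none was higher. ID2 remained 1.76-fold below vehicle, the largest of the 4 changes at that time. ID1 and ID3 were also higher in vehicle at 3 h than at baseline, so the size of their E2 difference at 3 h depends on which control it is set against.

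A gene is called where its adjusted p, from limma with the Benjamini-Hochberg method over all 11963 genes, is under 0.05. At 3 h 4 of the 7 members were called, all lower, and at 3 h 31.1% of all genes were called, with 17.6% called lower. The 4 E2 arrays lay below the 4 vehicle arrays for the same 4 members, and 30.6% of all genes had groups that did not overlap. A called change of at least 1.5-fold was seen for 3 members and for 5.31% of all genes. At 24 h, 4 of the 7 members were called, where 45.7% of all genes were called and 24.2% called lower. For the same 4 the arrays did not overlap, as for 41.4% of all genes, and 1 member had a called change of at least 1.5-fold, as did 6.34% of all genes. The median log2 difference of the 7 members was -0.31 at 3 h and -0.40 at 24 h, against 2e-04 and 0.0165 over all genes.

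The arrays were alike: correlations over all genes ran between 0.9978 and 0.9991 within a group and between 0.9882 and 0.9982 across groups. All 7 luminal epithelial markers measured had means of 11.28 to 13.91 on the log2 scale. Below the level of 6.11, which cuts off the dimmest 25% of genes and is called the dim level here, were 4 of 4 basal, 4 of 6 fibroblast, 3 of 4 endothelial and 2 of 4 immune markers measured. The mean over the luminal markers lay at 12.67 to 12.78 on the E2 arrays at 3 h, against 13.14 to 13.15 on the vehicle arrays. The 3′ minus 5′ signal of ACTB, a measure of RNA integrity, was 0.385 ± 0.0324 with E2 at 3 h and 0.315 ± 0.0271 with vehicle at 3 h (log2, SD, n = 4 each), and their arrays did not overlap. The same measure for GAPDH at 3 h, again without overlap, was -0.138 ± 0.0107 in E2 arrays and -0.116 ± 0.00851 in vehicle arrays. The part of these shifts in the results at 3 h was not tested. In such bulk RNA, fewer cells expressing a gene and less RNA per cell cannot be told apart.

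**Figure D1:**
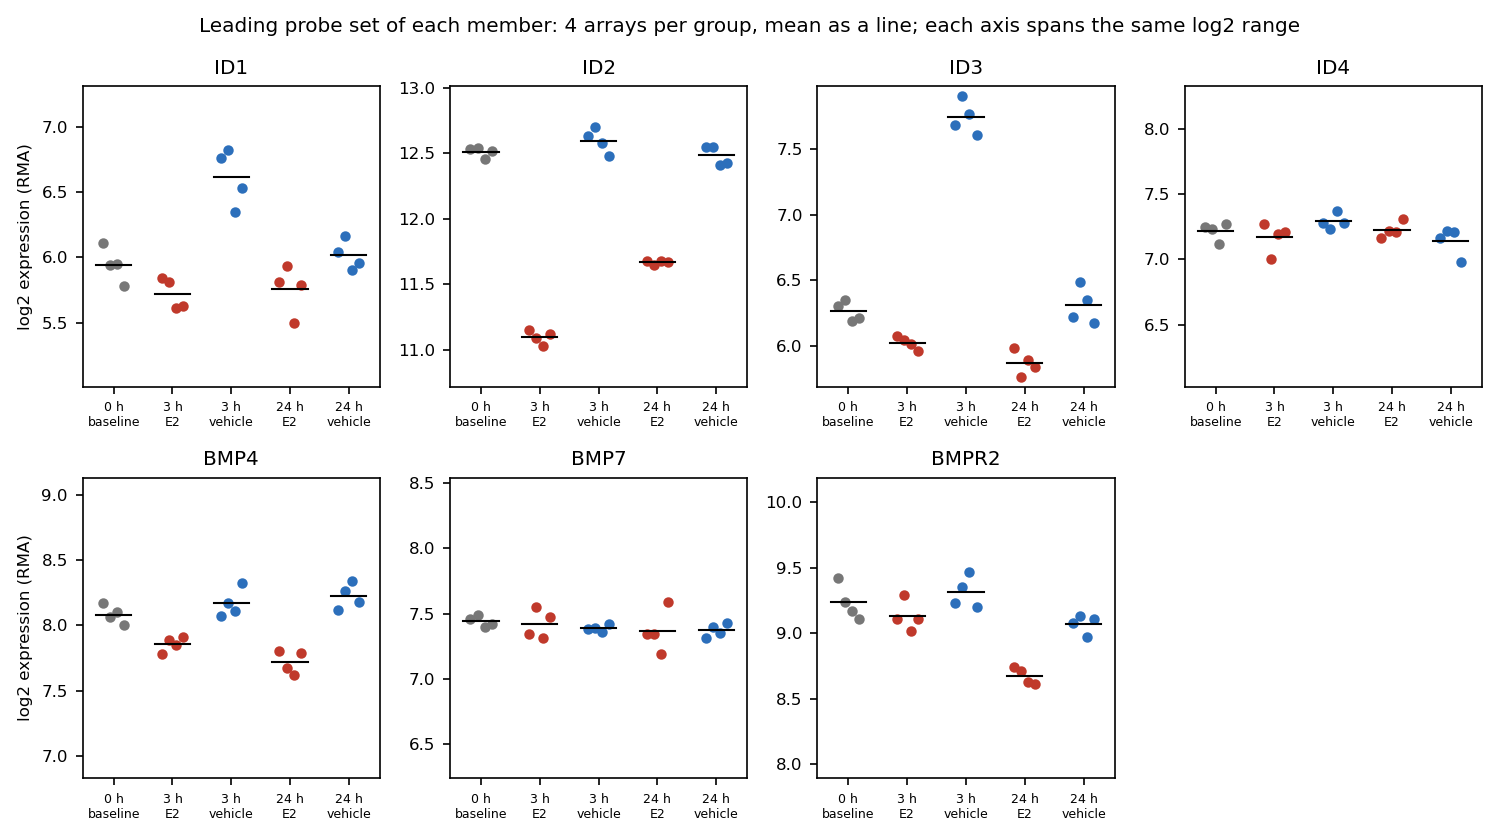
Log2 expression of the leading probe set of each of 7 members (y axis, RMA values, the same span in every panel) on the 4 arrays of each group (points) with the group mean (line). The E2 arrays of ID2 lie below all other arrays at both times, while the vehicle arrays of ID1 and ID3 at 3 h lie above those of every other group.

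Of the ligands, BMP4, which signals through the BMP type I and type II receptors, read 7.78, 7.89, 7.85 and 7.91 with E2 at 3 h, against 8.07, 8.17, 8.11 and 8.32 with vehicle. Every E2 array lay below every vehicle array. The difference was -0.31 ± 0.0586 on the log2 scale (SE, adjusted p = 0.00029 by limma). At 24 h BMP4 read 7.80, 7.67, 7.62 and 7.79 with E2, against 8.12, 8.26, 8.34 and 8.18 with vehicle. The groups were again apart, and the difference was -0.51 ± 0.0586, or 1.42-fold lower (adjusted p = 6e-07 by limma). The difference between the effects at the 2 times, 24 h minus 3 h, was -0.20 ± 0.0829 and did not pass (adjusted p = 0.078 by limma). It passed with array weights (-0.228), without vehicle array D at 3 h (-0.246) and without vehicle array A at 24 h (-0.231). BMP4 in vehicle stood 0.08 above baseline at 3 h and 0.14 above it at 24 h, neither of them called (adjusted p = 0.4 and 0.13 by limma).

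BMP7, a ligand that can pair with other BMPs, was read by 4 probe sets that did not all give the same answer. The leading one, 211260_at, read 7.34, 7.55, 7.31 and 7.47 with E2 at 3 h, against 7.38, 7.39, 7.36 and 7.42 with vehicle. At 24 h it read 7.34, 7.34, 7.19 and 7.59 with E2, against 7.31, 7.40, 7.35 and 7.43 with vehicle. The groups overlapped at both times, and 95% intervals of the E2 difference ran from -0.10 to 0.16 at 3 h and from -0.14 to 0.13 at 24 h. Both 209590_at and 209591_s_at, which are dim, were lower with E2 at 24 h. The first read 5.07, 5.02, 5.15 and 4.89 with E2, against 5.22, 5.17, 5.17 and 5.29 with vehicle, a difference of -0.18 ± 0.0476 (adjusted p = 0.0046 by limma over all probe sets). The second read 3.71, 3.79, 3.59 and 3.64 with E2, against 4.02, 4.10, 3.69 and 4.2 with vehicle, a difference of -0.32 ± 0.0839 (adjusted p = 0.0045). Its groups overlapped through vehicle array C. The fourth, 211259_s_at, was not called at either time (adjusted p = 0.18 and 0.66 by limma).

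BMPR2, the type II receptor that binds BMPs, read 9.11, 9.29, 9.02 and 9.11 with E2 at 3 h, against 9.23, 9.35, 9.47 and 9.20 with vehicle. The groups overlapped, and the difference of -0.18 ± 0.0699 just missed the threshold (adjusted p = 0.0539 by limma). It passed without vehicle array A (-0.212), without vehicle array D (-0.221) and without E2 array B (-0.236). The same difference passed with the replicate block, the filter on dim genes, array weights, or trend and robust variance settings. Some other alternatives left it uncalled. At 24 h BMPR2 read 8.74, 8.71, 8.63 and 8.61 with E2, against 9.08, 9.13, 8.97 and 9.11 with vehicle. The E2 arrays lay below all vehicle arrays, with a difference of -0.40 ± 0.0699, or 1.32-fold lower (adjusted p = 9e-05 by limma). A further probe set of BMPR2, 210214_s_at, gave -0.18 at 3 h (adjusted p = 0.085) and -0.37 at 24 h (adjusted p = 0.0005, both by limma). The effects at the 2 times were not shown to differ, at -0.22 ± 0.0988 for 24 h minus 3 h (adjusted p = 0.1 by limma), a difference that passed without vehicle array C at 3 h (-0.269).

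The upstream sequences of ID1, ID2 and ID3 are printed because these 3 genes had the largest E2 differences among the members at 3 h, and they cover the 250 bases before the RefSeq start of each gene (GRCh38.p14, 5′ to 3′ on the strand of the gene). They lie at chr20:31605039-31605288 on the plus strand for ID1, chr2:8681806-8682055 on the plus strand for ID2 and chr1:23559502-23559751 on the minus strand for ID3. Capitals mark GGTCA, the repeated arm of an estrogen response element, on either strand, so that a match on the other strand reads TGACC.
ID1: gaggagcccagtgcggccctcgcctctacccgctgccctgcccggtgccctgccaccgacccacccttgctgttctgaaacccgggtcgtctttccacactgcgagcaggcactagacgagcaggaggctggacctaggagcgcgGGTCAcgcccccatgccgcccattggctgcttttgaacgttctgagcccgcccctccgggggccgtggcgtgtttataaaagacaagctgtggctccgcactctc
ID2: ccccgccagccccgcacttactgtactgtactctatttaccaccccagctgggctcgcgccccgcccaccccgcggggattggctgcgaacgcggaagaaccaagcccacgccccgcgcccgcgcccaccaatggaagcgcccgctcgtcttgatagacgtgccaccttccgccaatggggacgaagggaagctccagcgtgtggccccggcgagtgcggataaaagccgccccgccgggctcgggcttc
ID3: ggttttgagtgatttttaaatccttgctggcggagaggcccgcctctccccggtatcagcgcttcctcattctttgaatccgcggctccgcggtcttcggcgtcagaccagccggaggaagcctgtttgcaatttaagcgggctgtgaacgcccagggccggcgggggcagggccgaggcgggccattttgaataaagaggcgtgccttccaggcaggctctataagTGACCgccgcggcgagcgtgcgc
ID1 held 1 match, 105 bases before its start, and ID3 held 1 on the opposite strand, 23 bases before its start, while ID2 held no match. Of 35116 RefSeq promoters of this length 32.6% held at least 1 match, so the letters are common. The full palindromic element, GGTCA and TGACC with 3 free bases between them, was in none of the 3 and in 0.0399% of all promoters. The letters GGCGCC, a motif of SMAD binding in BMP target genes, were in none of the 3 and in 16.4% of all promoters. BMP4, also lower at 3 h, has 3 RefSeq starts, and 1 of the 3 windows held GGCGCC, 232 bases before the start, while none held GGTCA. The TATAAA box was found in ID1, with 2 overlapping matches on opposite strands, and in 10.7% of all promoters. These matches describe the letters in this window and are not measured binding.

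ID2, which binds E proteins and also the retinoblastoma protein, read 11.15, 11.09, 11.03 and 11.12 with E2 at 3 h, against 12.63, 12.70, 12.58 and 12.48 with vehicle. The highest E2 array was more than 1 log2 unit below the lowest vehicle array. The difference was -1.50 ± 0.0439 (SE, adjusted p = 9.3e-16 by limma). At 24 h ID2 read 11.68, 11.65, 11.68 and 11.67 with E2, against 12.55, 12.55, 12.41 and 12.43 with vehicle. The groups stayed apart, and the difference was -0.81 ± 0.0439 (adjusted p = 9.4e-12 by limma). The 2 effects differed by 0.69 ± 0.0621, the one at 24 h being the smaller (adjusted p = 3.9e-08 by limma). ID2 at baseline read 12.53, 12.54, 12.46 and 12.52. Vehicle differed from it by 0.09 at 3 h and -0.03 at 24 h, neither called (adjusted p = 0.19 and 0.76 by limma), so ID2 had its lowest level with E2 at 3 h and the next lowest with E2 at 24 h, and the other 3 groups overlapped. The vehicle difference at 3 h passed without vehicle array D (0.129).

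ID3, an E protein partner that is often induced together with ID1, read 6.07, 6.04, 6.01 and 5.96 with E2 at 3 h, against 7.69, 7.91, 7.77 and 7.61 with vehicle. Every E2 array lay more than 1 log2 unit below every vehicle array. The difference was -1.73 ± 0.0695 (SE, adjusted p = 1.1e-13 by limma). At 24 h ID3 read 5.98, 5.76, 5.89 and 5.84 with E2, against 6.22, 6.49, 6.35 and 6.17 with vehicle. The groups did not overlap, and the difference was -0.44 ± 0.0695, or 1.36-fold lower (adjusted p = 3e-05 by limma). Both E2 means, 6.02 and 5.87, are below the dim level, where a difference may be compressed. The 2 effects differed by 1.29 ± 0.0982 (adjusted p = 3.5e-09 by limma), the largest such difference among the members.

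ID3 also differed between vehicle and baseline. The gene read 7.69 to 7.91 in vehicle at 3 h, against 6.30, 6.35, 6.19 and 6.21 at baseline, and was 2.8-fold higher (log2 difference 1.48, adjusted p = 3.5e-11 by limma). The 3′ minus 5′ signal of ACTB moved in the same comparison: it was 0.315 ± 0.0271 in vehicle at 3 h and 0.466 ± 0.0101 at baseline (log2, SD, n = 4 each). The vehicle arrays, at 0.291 to 0.339, did not overlap the baseline arrays, at 0.456 to 0.479, and baseline lay above all 4 other groups. The part of this shift in the vehicle differences of ID3 and ID1 was not tested. At 24 h vehicle was 0.05 from baseline (adjusted p = 0.72 by limma), and the groups overlapped. Against baseline, ID3 stood at -0.24 with E2 at 3 h and at -0.39 with E2 at 24 h, with arrays that did not overlap in either case (adjusted p = 0.0089 and 0.00011 by limma). The order of its levels was vehicle at 3 h, then vehicle at 24 h and baseline, which overlapped, and then E2 at 3 h and at 24 h, which also overlapped.

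ID1, the E protein partner most used as a readout of BMP signalling, read 5.84, 5.81, 5.61 and 5.63 with E2 at 3 h, against 6.76, 6.82, 6.35 and 6.53 with vehicle. The groups did not overlap, and the difference was -0.89 ± 0.103 (SE, adjusted p = 8.3e-07 by limma). At 24 h ID1 read 5.81, 5.93, 5.50 and 5.79 with E2, against 6.04, 6.16, 5.90 and 5.96 with vehicle. These groups overlapped, through E2 array B and vehicle array C. The difference of -0.26 ± 0.103 missed the threshold narrowly (adjusted p = 0.0501 by limma). It passed without E2 array B (-0.315) and without vehicle array C (-0.295). The same difference passed with the compared groups alone, the replicate block, quantile normalization again, or trend and robust variance settings. Some other alternatives left it uncalled. The effect at 24 h was smaller than that at 3 h by 0.63 ± 0.146 (adjusted p = 0.0019 by limma).

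As with ID3, the vehicle arrays of ID1 at 3 h stood above the baseline arrays, which read 6.11, 5.94, 5.95 and 5.78. Vehicle was 1.59-fold higher than baseline (log2 difference 0.67, adjusted p = 8.9e-05 by limma), and the groups did not overlap. Against that baseline, ID1 with E2 at 3 h was -0.22 and not called (adjusted p = 0.11 by limma). The mean of ID1 was below the dim level in every group except vehicle at 3 h, at 6.61 ± 0.215 (SD, n = 4).

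ID4, the family member that can also act against the other ID proteins, was not called with its leading probe set. That probe set, 209293_x_at, bears the suffix of those that may cross-hybridise. It read 7.27, 7.0, 7.19 and 7.21 with E2 at 3 h, against 7.28, 7.23, 7.37 and 7.28 with vehicle. The groups overlapped, and the interval of the difference ran from -0.24 to 0.0048. At 24 h the difference was 0.08 (adjusted p = 0.29 by limma). The dim probe set 209291_at gave another result. It read 3.59, 3.61, 3.60 and 3.55 with E2 at 3 h, against 3.94, 3.97, 3.94 and 4.14 with vehicle and 3.32, 3.42, 3.27 and 3.49 at baseline. The 3 groups did not overlap, and E2 was -0.40 ± 0.0611 against vehicle (adjusted p = 2.6e-05 by limma), while vehicle was 0.62 above baseline (adjusted p = 4.9e-07). Its mean level exceeds that of 2.88% of genes, so these sizes are uncertain. The third probe set, 209292_at, read 2.41 to 2.91 over all 20 arrays and was not called in either E2 comparison.

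**Figure D2:**
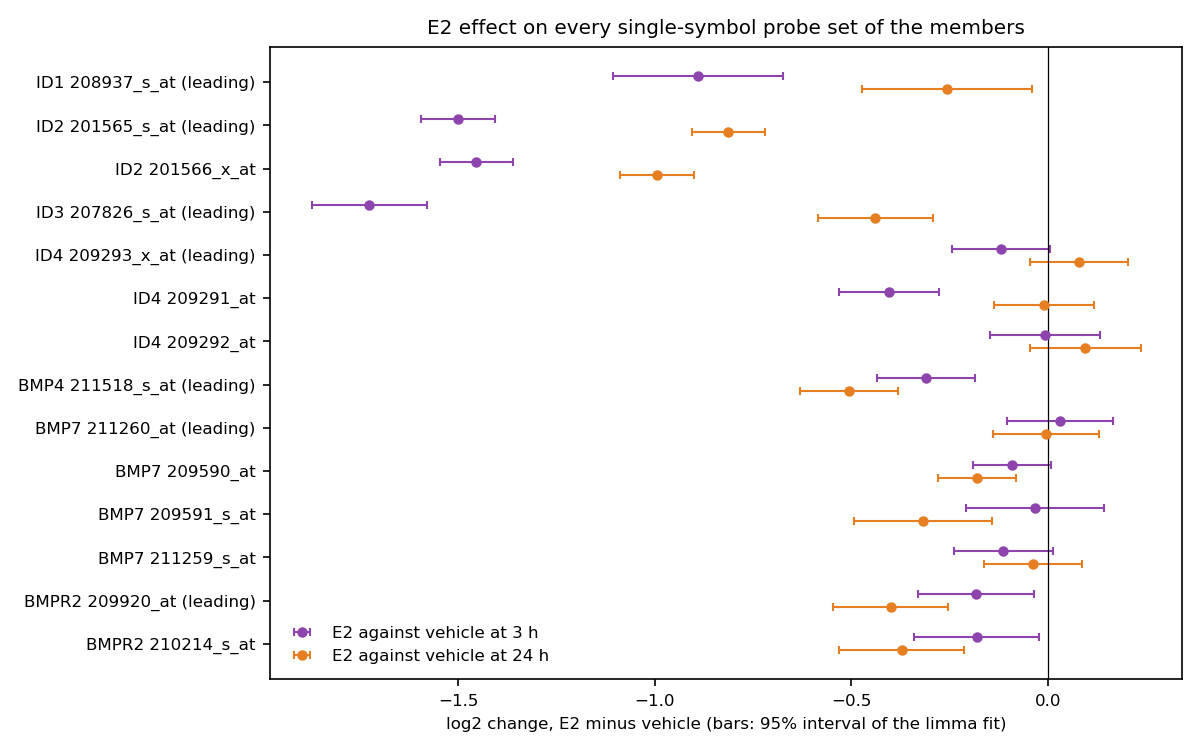
Log2 difference, E2 minus vehicle (x axis), for each of the 14 single-symbol probe sets of the 7 members (y axis), at 3 h and at 24 h, with 95% intervals of the limma fit. Both ID2 probe sets lie far below 0 at both times, both BMPR2 probe sets lie lower at 24 h, and the probe sets of ID4 and BMP7 are split.

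Both ID2 probe sets gave like values. In the fit over every single-symbol probe set, 29.4% were called with E2 at 3 h, 41.6% with E2 at 24 h, 31.1% for the difference between times and 17.6% in vehicle at 3 h. The further one, 201566_x_at, read 9.83, 9.91, 9.87 and 9.88 with E2 at 3 h, against 11.41, 11.32, 11.28 and 11.31 with vehicle. Its difference was -1.45 at 3 h and -0.99 at 24 h, and the 2 effects differed by 0.46 ± 0.0626 (adjusted p = 8.8e-06 by limma). ID1, ID3 and BMP4 each rested on 1 probe set.

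The difference of the E2 effects against vehicle, 24 h minus 3 h, was called for 3 of 7 members and for 34.3% of all genes. The 3 were ID1, ID2 and ID3, each with the smaller effect at 24 h. For ID1 and ID3 the vehicle mean fell between the 2 times, while the mean with E2 rose clearly only for ID2. In vehicle at 3 h against baseline, 2 of 7 members were called, ID1 and ID3, both higher, with 20% of all genes called and 9.95% called higher. Their arrays did not overlap with those at baseline, as for 25.4% of all genes. A called rise of at least 1.5-fold there was seen for these 2 members and for 0.811% of all genes. In vehicle at 24 h against baseline, limma called 0 of 7 members and 11.9% of all genes. There BMP4 and BMPR2 had unadjusted p of 0.027 and 0.034 by limma and an exact permutation p of 0.057 each. No member had an exact permutation p under 0.05. The shares of all genes under 0.05 by these measures were not counted.

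These comparisons share arrays: the vehicle arrays enter both the E2 and the vehicle comparison of their time, and the baseline arrays enter every comparison with baseline. Against baseline, 3 members were called lower with E2 at 3 h, ID2, ID3 and BMP4, where 35.5% of all genes were called. With E2 at 24 h they were ID2, ID3, BMP4 and BMPR2, where 41.6% were called. ID2 with E2 stood at -1.41 on the log2 scale against baseline at 3 h and at -0.84 at 24 h (adjusted p = 2.6e-15 and 6.1e-12 by limma). BMP4 was -0.23 at 3 h and -0.37 at 24 h (adjusted p = 0.0039 and 3.7e-05). BMPR2, which read 9.42, 9.24, 9.17 and 9.11 at baseline, was -0.56 with E2 at 24 h (adjusted p = 1.6e-06), beside -0.16 with vehicle at 24 h, which was not called (adjusted p = 0.15, all by limma).

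**Figure D3:**
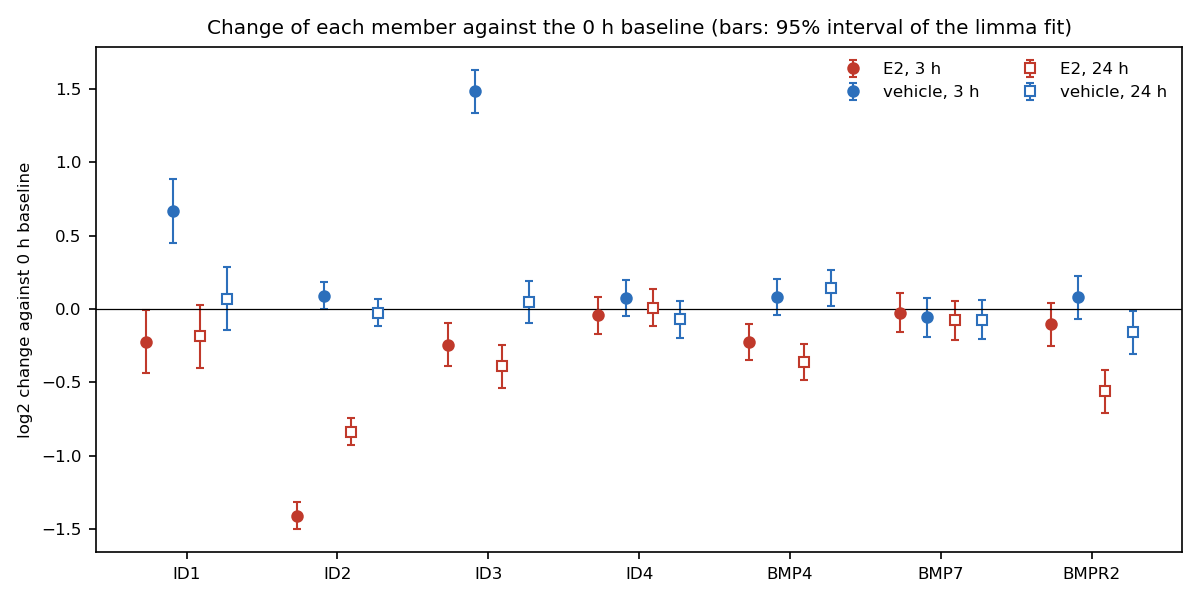
Log2 change of each of 7 members against the 0 h baseline (y axis) with E2 and with vehicle at 3 h (filled) and at 24 h (open), with 95% intervals of the limma fit. ID1 and ID3 in vehicle at 3 h lie above 0, at 0.67 and 1.48, while ID2 in vehicle stays near 0 and ID2 with E2 lies at -1.41 and -0.84.

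The other genes of the pathway were taken from 7 lists of 62 genes, of which 51 were measured and 13 of these were dim. At 3 h, 7 rose with E2, 15 fell and 29 were not called, so 43.1% were called beside 31.1% of all genes. At 24 h, 9 rose, 12 fell and 30 were not called, so 41.2% were called beside 45.7% of all genes. The lists were made with earlier results of these data known.

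Among 10 other BMP-family ligands, BMP5 was the only one called at either time. It was lower at 3 h, at 6.71 with E2 and 7.02 with vehicle (log2 difference -0.31 ± 0.0737, adjusted p = 0.0024 by limma). At 24 h it was higher, at 7.58 with E2 and 6.73 with vehicle (0.85 ± 0.0737, adjusted p = 1.1e-08). The effects at the 2 times differed by 1.16 ± 0.104 (adjusted p = 3.5e-08, by limma), whereas BMP4 was lower with E2 at both times.

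Of 6 other receptors and coreceptors, 1 rose and 3 fell at 3 h, and 1 rose and 2 fell at 24 h. ACVR1, a type I receptor for BMPs, was 9.69 with E2 and 10.84 with vehicle at 3 h, 2.23-fold lower (adjusted p = 8.1e-14 by limma). At 24 h ACVR1 was 9.99 with E2 and 10.40 with vehicle, a log2 difference of -0.41. ACVR2A, a type II receptor of activins and BMPs, was lower by a log2 difference of -0.42 at 3 h and -0.23 at 24 h. ENG, a coreceptor, was higher by 0.27 at 3 h and by 0.22 at 24 h. The call of ENG at 24 h was lost without vehicle array A (0.170), without vehicle array D (0.164) and with the compared groups alone in the fit. At each time 1 of the 2 ENG probe sets was called.

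Among the SMADs that carry the BMP signal, SMAD1 fell to 8.94 with E2 at 3 h, against 10.13 with vehicle, a 2.28-fold change (adjusted p = 1.2e-14 by limma). At 24 h SMAD1 was 9.48 with E2 and 10.11 with vehicle, 1.55-fold lower (adjusted p = 1.8e-10). SMAD5 was -0.20 ± 0.0601 at 3 h (adjusted p = 0.014), a call lost without vehicle array C (-0.161), and was not called at 24 h. At 3 h 1 of its 2 probe sets was called. SMAD9, which is dim, was called higher at 24 h, at 0.21, a call lost without vehicle array C (0.156) and with quantile normalization again (0.157). SMAD4, the shared partner, was not called at either time (adjusted p = 0.14 and 0.052 by limma).

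The inhibitors that act inside the cell or at its membrane moved both ways: 3 of 9 rose and 3 fell at 3 h, and 2 rose and 3 fell at 24 h. SMAD7, which blocks receptor activation of SMADs, was 11.09 with E2 and 8.57 with vehicle at 3 h, 5.74-fold higher (adjusted p = 3e-18 by limma). At 24 h SMAD7 was 9.36 with E2 and 8.66 with vehicle, 1.62-fold higher. BAMBI, a pseudoreceptor that lacks a kinase domain, was 6.93 with E2 and 8.42 with vehicle at 3 h, 2.82-fold lower (adjusted p = 6.1e-13). At 24 h BAMBI was 6.66 with E2 and 9.19 with vehicle, 5.78-fold lower (adjusted p = 2.5e-16, all by limma). TOB1, an antiproliferative protein that also binds SMADs, was higher by 0.83 at 3 h and by 0.49 at 24 h.

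SMAD6, the other inhibitory SMAD and itself a known BMP target, falls outside the rule for naming genes and was chosen after its values were seen. It was 6.04 with E2 and 7.85 with vehicle at 3 h, a log2 difference of -1.81 ± 0.128 (adjusted p = 6.2e-10 by limma). At 24 h it was 6.51 with E2 and 7.69 with vehicle, a difference of -1.18 ± 0.128. It has 4 probe sets, and 2 of them gave a call in the same direction at each time.

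Secreted antagonists were mostly not called, 8 of 10 at each time. FST, follistatin, was higher at 3 h by 0.34 ± 0.0878 (adjusted p = 0.0052 by limma), with 1 of its 2 probe sets called. SOSTDC1, which is dim, was called lower at 3 h at -0.18, and that call was lost without any of vehicle arrays B and D or E2 arrays A, B and C, with values of -0.143 to -0.190. At 24 h CRIM1, a membrane protein that binds BMPs, was lower by a log2 difference of -0.57. NBL1 was called at -0.12 at 24 h, a call lost without vehicle array D (-0.085) and with the compared groups alone in the fit.

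Among 8 E proteins and other helix-loop-helix regulators, 2 rose and 5 fell at 3 h, and 3 rose and 3 fell at 24 h. The E proteins and BHLHE40 fall outside the rule and were named after their values were seen. TCF3 was -0.20 at 3 h, with 5 of 13 probe sets called lower, and was not called at 24 h. TCF12 was -0.17 at 3 h and -0.11 at 24 h. TCF4 was not called at either time, though 2 of its 7 probe sets were called lower at 3 h. BHLHE40 was called higher at 24 h at 0.059, with 0 of 2 called in the fit over probe sets. HEY2, a repressor of the HES and HEY family, was 9.21 with E2 and 7.23 with vehicle at 3 h, 3.94-fold higher, and 9.46 with E2 and 7.46 with vehicle at 24 h, 3.99-fold higher (adjusted p = 5.7e-17 and 6.6e-17 by limma). HES1, a repressor of the same family, was higher at 3 h, at 10.20 with E2 and 9.08 with vehicle. At 24 h HES1 was lower, at 8.70 with E2 and 9.25 with vehicle (adjusted p = 1.3e-08). HEY1 was lower by a log2 difference of -0.81 at 3 h and -0.24 at 24 h. BHLHE41 was -0.56 at 3 h, a value outside the rule and chosen after it was seen, and 0.38 at 24 h. Of 4 other known BMP targets none was called at 3 h by limma, where DLX5 had the smallest unadjusted p, 0.0785 (adjusted p = 0.19). At 24 h MSX2 was called lower at -0.51 and DLX5 higher at 0.28.

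**Figure D4:**
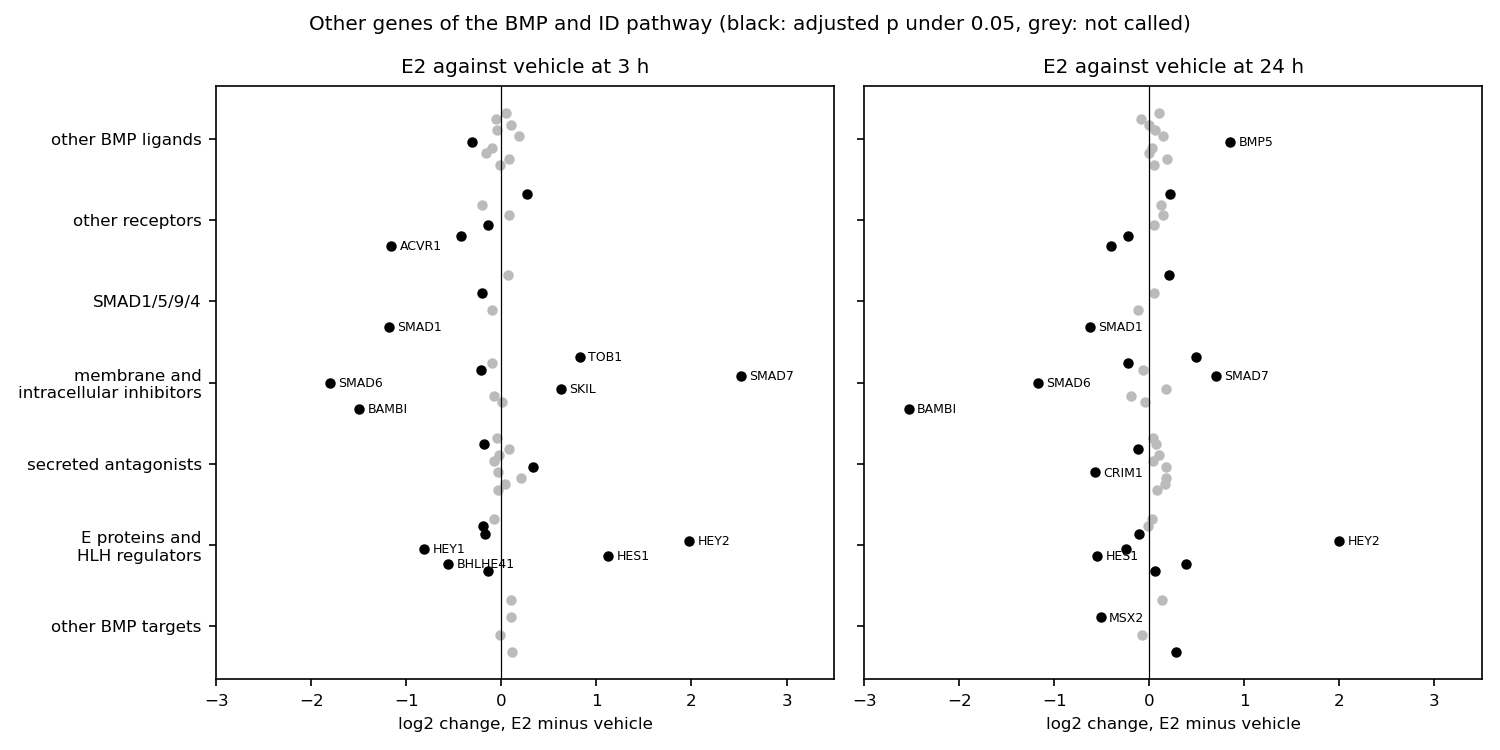
Log2 difference, E2 minus vehicle (x axis), for the 51 measured genes of 7 pathway lists (y axis) at 3 h and at 24 h, with called genes in black and the others in grey. SMAD7 and HEY2 lie farthest right at 3 h, SMAD6 and BAMBI farthest left at 3 h, and BAMBI at -2.53 is farthest left at 24 h.

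For ID1, ID2 and ID3, the genes most like each were taken as those with the smallest root mean square difference over the 20 arrays, after each gene's baseline mean was subtracted. For ID2, whose own root mean square change was 0.738, GTF2E1 was closest at 0.145, then TGIF1 at 0.163 and FOXI1 at 0.165. TGIF1 encodes a repressor that binds SMADs. For ID3, at 0.701, the closest were RAP2B at 0.279, FLRT3 at 0.289 and ZNF365 at 0.292. Each of these 3 had a positive log2 difference of vehicle from baseline at 3 h, between 0.99 and 1.247, as ID3 did. For ID1, at 0.355, they were DUSP14 at 0.147, ATP1B1 at 0.167 and DEGS1 at 0.171, with vehicle differences of 0.467 to 0.671 at 3 h. The genes most like ID2 had vehicle differences between -0.023 and 0.176 at 3 h. The genes were chosen over the same 20 arrays, the vehicle arrays at 3 h included. Their likeness to ID1, ID2 or ID3 in the vehicle difference therefore follows from the choice and is a description only.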

How the data were processed

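RNA of SUM44 cells was measured on 20 arrays in 5 groups of 4, grouped by sample title. The deposited log2 values, 1 per probe set and array, were made by the authors with the affy package and RMA, as the submitters' processing notes list them. RMA removes background, equalises the arrays and joins the probes of a set, so a shift in RNA per cell is not seen. Their versions are not given in the sources used here.

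Of 22277 probe sets, 62 controls were left out. The annotation gave 1 symbol for 19064, several for 1043 and none for 2108. The Entrez numbers of 19052 matched the RefSeq table, which changed 0 symbols. The probe set of highest mean stood for each of 11963 genes. The two-sided test was limma 3.58.1 (R 4.3.3, functions lmFit and eBayes) over all 20 arrays with 1 mean per group and no block, with Benjamini-Hochberg adjustment over all genes and a threshold of 0.05. Further probe sets were tested in a fit over every single-symbol probe set. Errors after ± are standard errors unless SD is named. With 4 arrays against 4, the smallest two-sided exact permutation p is 0.0286. The number of arrays limits the precision.

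Named besides the members were up to 3 genes of smallest p per pathway list and E2 comparison, and for each member called with at least a 1.5-fold change the 3 genes of most similar profile. The members and lists were chosen with earlier results of these data known. Promoter sequences are from RefSeq (GRCh38.p14) and were found for 7 of 8 members. Alternatives tried were other normalizations, thresholds, probe sets, control groups and variance settings, array weights, a replicate block, a filter on dim genes, fits of the compared groups alone and each array left out.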

Additional observations from a re-analysis of the deposited data

Results flagged for a closer look

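The E2 effects at 24 h and at 3 h differed by limma for 3 members, each less negative at 24 h. The effect on ID1 was higher by 0.63 on the log2 scale, that on ID2 by 0.69 and that on ID3 by 1.29. From 3 h to 24 h the mean with E2 went from 11.10 to 11.67 for ID2. For ID3 it went from 6.02 to 5.87 and for ID1 from 5.72 to 5.76. The vehicle mean went from 7.75 to 6.31 for ID3, from 6.61 to 6.01 for ID1 and from 12.60 to 12.49 for ID2. For ID1 and ID3 the difference thus lay mostly in the vehicle arrays. Single arrays stood apart from the other 3 of their group in 2 of 70 groups examined over 14 probe sets, and chance gives about 1 in 20. ID4 probe set 209291_at read 4.14 on vehicle array D at 3 h, with the others at 3.94 to 3.97. ID4 probe set 209292_at read 2.72 on E2 array A at 3 h, with the others at 2.63 to 2.64. Both probe sets are dim.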

How the results depend on the processing

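The 13 called member results kept direction and an adjusted p under 0.05 in 263 of the 264 refits that gave them a value. The other was ID1 at 3 h with baseline in place of vehicle, a control chosen after seeing the data, at -0.223 (adjusted p = 0.107 by limma). The difference between times was not refitted with baseline as the control. Against baseline, ID3 with E2 was -0.24 at 3 h and -0.39 at 24 h, so its smaller effect at 24 h holds only against vehicle. ID1 with E2 was -0.22 and -0.19, and ID2 -1.41 and -0.84. The filter on dim genes removes ID1 and gives it no value. Asking also for a change of at least 1.5-fold drops BMP4 at both times and ID3 and BMPR2 at 24 h. Member counts moved by over 1.5 times in 3 cases: to 1 in vehicle at 3 h without the dimmest 25% of genes, to 5 for the difference between times with array weights, and to 1 for E2 at 24 h when a change of at least 1.5-fold was also asked. Missed calls were less stable: adjusted p ran from 0.0038 to 0.194 for ID1 at 24 h from 0.015 to 0.285 for BMPR2 at 3 h and from 0.0188 to 0.167 for the BMP4 difference between times. With array weights, ID4 at 3 h passed at -0.155 (adjusted p = 0.0463). With the mean of a gene's probe sets it passed at -0.177 (adjusted p = 0.0034 by limma). In that fit the ID4 difference between times (0.232) and the ID4 vehicle difference at 3 h (0.267) passed too. So did BMP7 with E2 at 24 h, at -0.135 (adjusted p = 0.0032 by limma). Replicate letters were not taken to pair the arrays: over 24 same-lettered pairs the correlation of deviations from the group means ran from -0.245 to 0.225, with 2 over 0.1 and 3 arrays closest to their own letter. The 2 were letter D with E2 against baseline, at 0.159 at 3 h and 0.225 at 24 h. With the replicate block 5 members were called at 3 h and 5 at 24 h, BMPR2 (adjusted p = 0.0451) and ID1 (adjusted p = 0.0038) being added, with 3 for the difference and, for vehicle, 2 at 3 h and 0 at 24 h. Over all genes the block gave 3665 calls at 3 h, against 3720 without it, and 5479 at 24 h, against 5469.

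Differences that changed sign had not been called by the leading probe set. For BMP7 with E2 at 24 h they were 0.021 with arrays centred, 0.013 with quantile normalization, and -0.08 to 0.054 with single arrays left out. For BMP7 with E2 at 3 h they were -0.052 with the mean of probe sets, -0.027 against baseline, -0.091, -0.033 and -0.114 with the other probe sets, and -0.013 to 0.067 with single arrays left out. The BMP7 difference between times was 0.076 with 211259_s_at and -0.111 to 0.024 with single arrays left out. For BMP7 in vehicle at 3 h they were 0.026 with the mean of probe sets and 0.069, 0.061 and 0.033 with the others, and at 24 h 0.065 with 209590_at. ID4 gave -0.010 with 209291_at for E2 at 24 h and 0.030 with 209292_at for vehicle at 24 h. With single arrays left out, vehicle at 24 h gave -0.015 to 0.093 for ID3 and -0.048 to 0.001 for ID2. The cause was not tested. Of the pathway genes named by the rule 462 alternatives kept the call and 15 lost it, all for SOSTDC1, SMAD5, ENG, NBL1 or SMAD9.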
